A study of Homo sapiens with 6 samples.

Results

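The genes of 10 transcription and splicing factors that steer the passage between epithelial and mesenchymal cell states were examined for open chromatin in wild-type hTERT-RPE1 cells, an immortal line from human retinal pigment epithelium that carries the telomerase gene hTERT. Of these, 7 are mesenchymal factors (SNAI1, SNAI2, TWIST1, TWIST2, ZEB1, ZEB2 and PRRX1) and 3 are epithelial factors (GRHL2, ESRP1 and OVOL1), out of 19970 protein-coding genes in the gene table used. Members of the set were the ATAC-seq peaks that overlapped the interval of 1 of these genes or lay within 100000 bp of it. They numbered 214 of 142865 peaks in the R1 list and 200 of 134351 peaks in the R2 list on chromosomes 1 to 22 and X. ATAC-seq marks accessible DNA by the insertion of sequencing adapters by the transposase Tn5 into isolated nuclei. All 6 libraries come from the same untreated wild-type line and their titles divide them into a set R1 of 3 libraries and a set R2 of 3. Each set is represented by 1 merged list of peaks, so no spread between libraries could be computed, and no p-value is given. Coordinates are on hg38.

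An epithelial cell that turns mesenchymal loses its junctions and polarity and gains motility. The zinc finger factors SNAI1 and SNAI2, the zinc finger homeobox factors ZEB1 and ZEB2 and the basic helix-loop-helix factors TWIST1 and TWIST2 drive this change, in part by repressing E-cadherin through E-box elements in DNA, and PRRX1 is a homeobox factor of mesenchyme. GRHL2 and OVOL1 are transcription factors that hold the epithelial state and restrain ZEB1, and ESRP1 is an RNA-binding protein that sets the epithelial pattern of splicing. The retinal pigment epithelium is an epithelium that can take up a mesenchymal state when its cells leave their sheet, for example in scars of the retina.

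Each peak carries a fold enrichment over its local background and a p-value, both as the authors deposited them. The pileup, the height of the signal at the summit in counted reads or fragments, was recovered from these 2 values. The median pileup was 72 in R1 and 72 in R2, and the lowest background was 7.93 in R1 and 7.79 in R2. Fold values describe single peaks and were ranked only within their own list. Joining peaks of both lists that overlapped gave 187 shared regions around the 10 genes, 23 regions of R1 alone and 11 of R2 alone. Of the R1 peaks 89.3% were found again in R2, against 87.3% over chromosomes 1 to 22 and X, and of the R2 peaks 94.5% were found again in R1, against 91.8%.

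The mesenchymal factors all had open chromatin at an end of the gene, and among the epithelial factors such regions were weak or missing. The gene table gives no strand, so an end was called open where a peak lay no more than 1000 bp from the first or the last base of the gene. All 7 mesenchymal factors had an open end in both lists, and of the 3 epithelial factors ESRP1 and OVOL1 had one and GRHL2 had none. Over all protein-coding genes 73.9% had one in both lists, so a count of 7 or of 2 says little by itself. With 500 bp the counts were 7 and 1, against 69.5% of all protein-coding genes, and with 2000 bp they were 7 and 2, against 78.5%. The strength of these regions separated the groups more clearly. The highest pileup at a gene end was between 93 and 359 in R1 and between 120 and 363 in R2 for the mesenchymal factors. It was 45 and 35 in R1 and 46 and 38 in R2 for ESRP1 and OVOL1. The groups did not overlap in either list. A gene-end pileup of at least the list median in both lists was reached by 7 of 7 mesenchymal factors and 0 of 3 epithelial factors, against 65.7% of all protein-coding genes. This threshold was chosen after the values were seen.

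**Figure D1:**
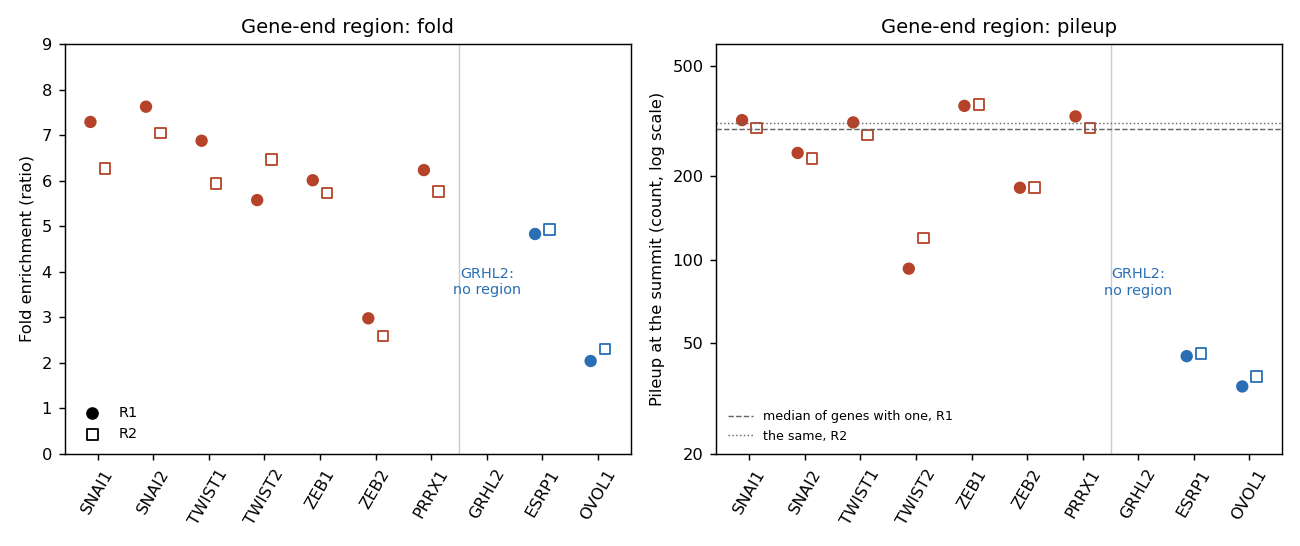
Fold enrichment (left, linear axis) and pileup at the summit (right, log axis) of the gene-end region with the best fold rank or the highest pileup of each factor gene, in R1 (filled circles) and R2 (open squares), with mesenchymal factors in red and epithelial factors in blue. The 7 mesenchymal genes lie at a pileup of 93 or more in both lists, ESRP1 and OVOL1 lie at 46 or less, GRHL2 has no region, and the horizontal lines on the right mark the median pileup over all protein-coding genes with an open end in both lists, 296 in R1 and 311 in R2.

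SNAI1, whose product is the founding repressor of the Snail family, spans chromosome 20 from 49982980 to 49988886. Its low-coordinate end lay under a shared region (49982261 to 49984278) whose fold was 7.29 (R1) and 6.26 (R2) and whose pileup was 319 and 299. A pair of further shared regions lay at the other end, with folds of 3.84 and 3.29 inside the gene and 4.60 and 5.26 just past it. SNAI1 was thus open at both ends, and 32.8% of its 5907 bp lay in shared regions.

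SNAI2, the Slug gene, lies on chromosome 8 from 48917598 to 48921429. A single shared region of 1912 bp covered its high-coordinate end, with folds of 7.62 and 7.05 and pileups of 243 in R1 and 232 in R2. The region began inside the gene and ran past its end, over the limit of a noncoding gene of the table (LOC107986942). It was also the region with the best fold rank in the whole SNAI2 window. Of the 10 factor genes, SNAI2 was the only one whose best-ranked region lay at its own end.

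TWIST1, a basic helix-loop-helix factor of mesoderm and neural crest, lies on chromosome 7 from 19113047 to 19117636. Its high-coordinate end lay in a shared region of 2159 bp with folds of 6.88 and 5.94 and pileups of 313 and 282. The R1 list has 2 peaks in that region and the R2 list 1. A second shared region inside the gene had folds of 3.47 and 3.14. Together they covered 40.5% of the gene, the highest share among the 10.

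TWIST2, the close relative of TWIST1, lies on chromosome 2 from 238848085 to 238910534. Its low-coordinate end, where RefSeq places the start, was covered by a shared region of 2257 bp with folds of 5.57 and 6.46 and a pileup of 93 in R1 and 120 in R2, the lowest of the mesenchymal group. The strongest signal of the gene lay inside it, in a region from 238863870 to 238865057 with folds of 7.65 and 7.42 and pileups of 332 and 310.

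ZEB1 spans chromosome 10 from 31318417 to 31529804. The region over its low-coordinate end (31318205 to 31319796) had folds of 6.01 and 5.73 and the highest gene-end pileup of the set, 359 in R1 and 363 in R2. RefSeq lists 7 starts for ZEB1 in this stretch, and 4 of them lay inside a peak of both lists. Over all listed starts of protein-coding genes 60.1% did. A second region downstream (31320131 to 31321140) had folds of 3.99 and 3.12. The 4 of 7 starts of ZEB1 are near the share of all listed starts, so this count is not read as a trait of ZEB1.

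ZEB2 spans chromosome 2 from 144384081 to 144520119 and differed from the other mesenchymal genes in its fold. The region over its start, at the high-coordinate end, had folds of 2.98 and 2.59, at the 22.2nd percentile of R1 and the 12.0th percentile of R2 by fold. Its pileup was 182 in both lists, well above the list medians. The local background there was 60.5 in R1 and 69.7 in R2. This region was the outermost of 7 shared regions that stood within 15.1 kb (144505330 to 144520417). Their R1 pileups lay between 76 and 246 and their R2 pileups between 59 and 220, while their folds lay between 2.19 and 4.52 in R1 and between 2.40 and 4.09 in R2. Among all peaks, fold and pileup therefore placed the ZEB2 start at opposite sides of the middle of the lists. Among genes with a gene-end region its pileup was low, at percentiles 27.8 in R1 and 25.6 in R2.

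PRRX1 spans chromosome 1 from 170662768 to 170739421. Its low-coordinate end lay in the widest shared region of its window, 3396 bp from 170661913 to 170665308, with folds of 6.23 and 5.76 and pileups of 329 and 299. Inside the gene a region from 170698589 to 170699595 was stronger by fold, at 11.8 and 12.0, with pileups of 137 and 144.

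GRHL2, a grainyhead factor of epithelia, spans chromosome 8 from 101492439 to 101681200. No peak of either list lay within 1000 bp of an end. The nearest shared region outside the low-coordinate end was 3410 bp away, with folds of 4.81 and 3.64 and pileups of 42 and 31, and the nearest to the high-coordinate end was 9577 bp away. ESRP1 lies on chromosome 8 from 94641174 to 94707466. The region at its low-coordinate end (94639063 to 94641192) had folds of 4.83 and 4.93 and pileups of 45 and 46. In R1 the peak stopped short of the gene, and in R2 it reached into it. The region also lies over an end of the noncoding gene LINC02894. OVOL1 lies on chromosome 11 from 65787063 to 65797214. Its region began 706 bp inside the low-coordinate end and was among the weakest of all peaks, with folds of 2.04 and 2.30 at percentiles 2.26 and 6.18 and pileups of 35 and 38. It also counts for the end of LOC124902693, a protein-coding gene of the table that overlaps OVOL1.

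Several of these open ends are shared with noncoding genes, so the signal cannot be assigned to a single gene. Beside the cases named above, the region at TWIST2 also touches LOC100287387, that at ZEB1 lies in ZEB1-AS1, that at ZEB2 in ZEB2-AS1, and that at OVOL1 lies near the end of OVOL1-AS1.

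By fold the groups came closer together. Gene-end regions at or above the median fold of both lists were found for 6 of 7 mesenchymal factors, ZEB2 being the exception, and for 0 of 3 epithelial factors, against 57.4% of all protein-coding genes. ESRP1 lay just under that line, with 4.83 against a median of 5.03 in R1 and 4.93 against 5.11 in R2. ZEB2 lay between ESRP1 and OVOL1. Among genes with a gene-end region, the pileup of the mesenchymal factors was ordinary, between percentiles 15.3 and 67.5 in R1 and between 17.3 and 66.6 in R2. That of ESRP1 lay at 7.51 and 6.98 and that of OVOL1 at 4.98 and 5.26. 

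The sequence around the start is shown for the 4 mesenchymal genes whose promoters are in the RefSeq table used (GRCh38.p14), because each of these starts lay inside a peak of both lists. Each window runs from 250 bases before the start to 50 after it, 5′ to 3′ on the strand of the gene, and capitals mark the hexamer CACCTG or its reverse complement CAGGTG, the form of E-box that Snail and ZEB proteins are known to bind.
PRRX1 (chr1:170663881-170664180, plus strand): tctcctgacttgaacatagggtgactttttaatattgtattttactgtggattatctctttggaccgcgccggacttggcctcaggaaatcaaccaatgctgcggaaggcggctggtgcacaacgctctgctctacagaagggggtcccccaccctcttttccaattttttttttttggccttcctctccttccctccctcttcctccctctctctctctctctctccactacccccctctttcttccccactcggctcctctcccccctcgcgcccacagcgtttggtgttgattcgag
TWIST2 (chr2:238847835-238848134, plus strand): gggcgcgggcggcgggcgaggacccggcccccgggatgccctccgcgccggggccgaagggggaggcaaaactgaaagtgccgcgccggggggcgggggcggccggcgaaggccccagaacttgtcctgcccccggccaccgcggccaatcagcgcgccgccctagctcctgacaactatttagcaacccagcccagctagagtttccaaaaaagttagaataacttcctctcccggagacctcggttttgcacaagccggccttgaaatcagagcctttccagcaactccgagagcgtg
ZEB2 (chr2:144520070-144520369, minus strand): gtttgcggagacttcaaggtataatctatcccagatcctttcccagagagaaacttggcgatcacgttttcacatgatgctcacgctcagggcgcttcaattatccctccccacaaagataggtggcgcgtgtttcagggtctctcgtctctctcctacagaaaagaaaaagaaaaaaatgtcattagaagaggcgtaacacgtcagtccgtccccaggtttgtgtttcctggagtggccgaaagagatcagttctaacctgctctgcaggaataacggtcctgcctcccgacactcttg
ZEB1, start at base 31319216 (chr10:31318966-31319265, plus strand): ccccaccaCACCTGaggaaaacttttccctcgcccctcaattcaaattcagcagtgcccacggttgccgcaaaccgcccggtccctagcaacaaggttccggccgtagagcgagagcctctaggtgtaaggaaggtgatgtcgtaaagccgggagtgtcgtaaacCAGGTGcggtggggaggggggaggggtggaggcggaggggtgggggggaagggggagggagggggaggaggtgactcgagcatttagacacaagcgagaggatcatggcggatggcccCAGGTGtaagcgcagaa
The ZEB1 window held 3 copies, beginning at bases 9, 166 and 284 of the window, and the windows of PRRX1, TWIST2 and ZEB2 held 0. ZEB1 has 7 listed starts, 4 of them inside a peak of both lists, and the printed window is the one with the most copies. Its count is therefore not set against those of the other genes. The window of the first listed ZEB1 start held 1, and the other 5 ZEB1 windows held 0. Among 34961 promoters of this length that RefSeq lists, 20.6% held at least 1 copy on either strand. TGANTCA, the core of the AP-1 site read on both strands, was in 7.68% of those promoters and in none of the 10 windows of these 4 genes. The numbers of CG dinucleotides in the printed windows were 11 for PRRX1, 29 for TWIST2, 14 for ZEB2 and 17 for ZEB1, against a median of 14. A match of letters does not show that a protein binds there.

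Counted over all shared regions, the surroundings of the genes did not separate the groups. Every one of the 10 windows held shared regions, as did 96% of the windows of all protein-coding genes. Shared regions per 100 kb of window had a median of 6.48 for the mesenchymal factors, with a range from 4.62 to 12.6, and of 5.66 for the epithelial factors, with a range from 4.13 to 9.99. Over all protein-coding genes the median was 6.65, with quartiles of 3.97 and 9.37. SNAI1 led with 12.6, at the 94.3rd percentile of all protein-coding genes, followed by OVOL1 with 9.99, ZEB2 with 8.33, PRRX1 with 6.87 and TWIST2 with 6.48. SNAI2 with 5.89, TWIST1 with 5.87 and GRHL2 with 5.66 were close to each other, and ZEB1 with 4.62 and ESRP1 with 4.13 were lowest. The difference of the medians, 0.82, was 1.57 with R1 alone and with R2 alone, and without ESRP1 it turned to -1.35 and without GRHL2 to -0.58. By window density over all protein-coding genes, TWIST1 stood nearest to FZD7, RANBP6 and SEPTIN2 and SNAI1 to PRR15L, SCRT1 and TRIM8, all within 0.001 regions per 100 kb.

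**Figure D2:**
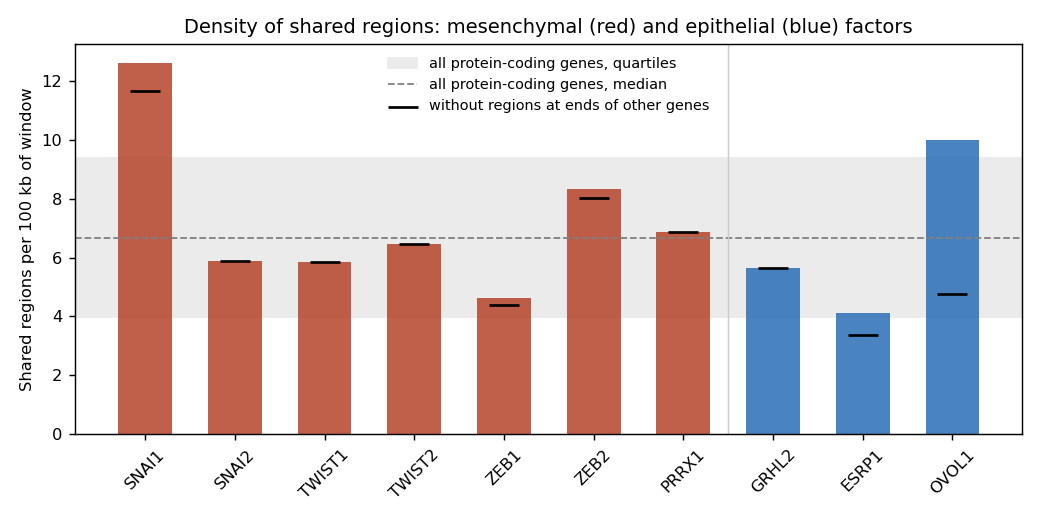
Shared regions per 100 kb of window (bars, linear axis from 0) for the mesenchymal (red) and epithelial (blue) factor genes, with the value without regions at ends of other protein-coding genes as a black line and the quartiles (band) and median (dashed) of all protein-coding genes. SNAI1 reaches 12.6 and OVOL1 9.99, and the OVOL1 value is 4.76 without the ends of other genes, which also leaves out the region at its own end.

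Neighbouring genes weighed differently on the windows. Of the 21 shared regions around OVOL1, 11 lay at ends of other protein-coding genes, among them KAT5, RNASEH2C, CFL1, MUS81, EFEMP2, FIBP and FOSL1, which encodes the AP-1 subunit FRA1. Among the 11 is the region at OVOL1's own end, which counts for the overlapping LOC124902693, so the value without such regions leaves it out too. Of the 26 around SNAI1 only 2 did, at SPATA2 and RNF114. Around SNAI2, TWIST1, TWIST2, PRRX1 and GRHL2 no shared region lay at an end of another protein-coding gene, and ZEB1, ZEB2 and ESRP1 had 1, 1 and 2. Without such regions the density was 11.7 for SNAI1 and between 4.38 and 8.03 for the other mesenchymal factors, against 3.38 for ESRP1, 4.76 for OVOL1 and 5.66 for GRHL2. The medians were then 6.48 for the mesenchymal and 4.76 for the epithelial factors. All mesenchymal genes but ZEB1, 6 of 7, lay above the 3 epithelial ones, SNAI2 with 5.89 and TWIST1 with 5.87 only just above GRHL2. This density was not computed over all protein-coding genes, so the order is not read as a trait of the groups.

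**Figure D3:**
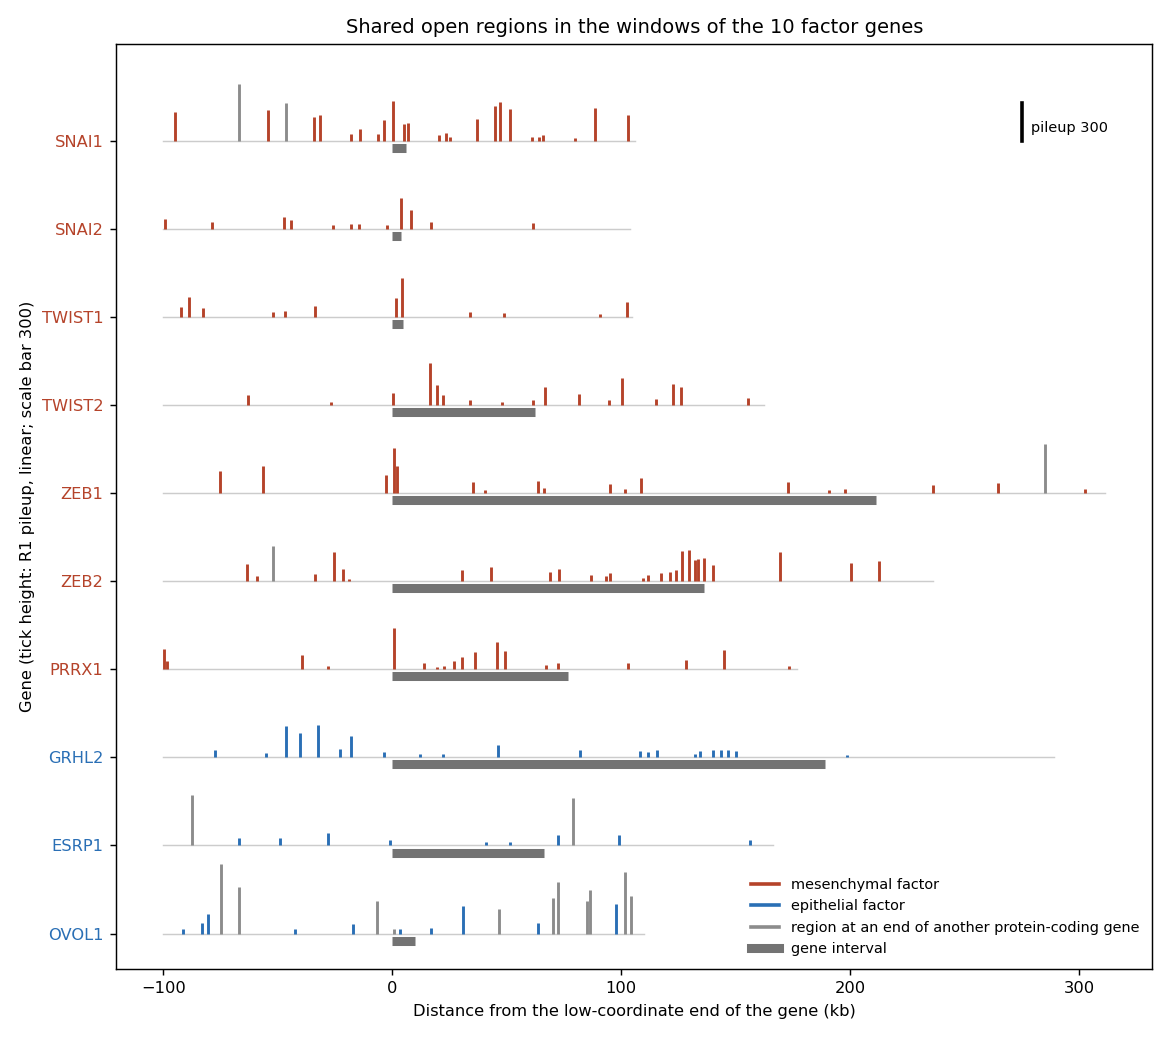
Shared regions in the window of each factor gene, placed by distance in kb from the low-coordinate end of the gene (horizontal axis), with tick height proportional to the R1 pileup the gene interval as a thick grey bar and regions at ends of other protein-coding genes as grey ticks. Tall ticks stand at an end of SNAI1, SNAI2, TWIST1, ZEB1 and PRRX1, a row of them near the high end of ZEB2, and low ticks of at most 100 inside GRHL2.

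Inside the genes, all 10 had at least 1 shared region, as did 82.1% of all protein-coding genes. Genes of like length differed. TWIST2, with 62450 bp, held 7 and PRRX1, with 76654 bp, held 11, against 3 in ESRP1, with 66293 bp. Per 100 kb of gene these were 11.2, 14.4 and 4.53. Over all protein-coding genes the median was 7.40, with quartiles of 2.82 and 13.6. TWIST2 and ESRP1 thus lay within the quartiles, and ESRP1 is the only epithelial gene of this length. Shared regions covered 11.2% of TWIST2 and 13.1% of PRRX1, against 1.10% of ESRP1. The covered share of the gene was not computed over all protein-coding genes. The longest genes of both groups were alike in number, with 12 in ZEB1 and 13 in GRHL2, which cover 4.87% of ZEB1 and 4.54% of GRHL2. The shortest genes cannot be set against these, because 1 region covers much of them.

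The regions inside GRHL2 lay away from its ends and were low. Of the 13, 9 stood within 42.6 kb in the later part of the gene (101600242 to 101642795), with pileups between 28 and 62 in R1 and between 27 and 67 in R2. The strongest lay earlier, from 101537975 to 101538957, with folds of 10.4 and 10.6 and pileups of 100 and 94. Before the low-coordinate end stood a group with higher signal, among them a region from 101459393 to 101460865 with pileups of 261 and 274, which ends just short of the far limit of the noncoding gene GRHL2-DT, whose other limit overlaps GRHL2. GRHL2 thus had signal on both sides of its low-coordinate end and none at it. Shared regions inside the genes and away from their ends had a median pileup of 76 in R1 and 70 in R2 over 43 regions of the mesenchymal genes, and of 47.5 and 42.5 over 16 regions of the epithelial genes. These medians pool regions that are not replicates, and ZEB2 gave 16 of the 43 and GRHL2 13 of the 16. By gene, GRHL2 had 54 and 45, near the lowest mesenchymal values of 59 and 54 for PRRX1. ESRP1 had 24.5 and 26.5 and OVOL1 39 and 42. By median fold the pooled regions differed less, with 4.52 and 4.74 for the mesenchymal genes and 4.45 and 4.05 for the epithelial genes. In the flanks the order of the pooled medians was the opposite. The median pileup there was 81 in R1 and 80.5 in R2 over 80 regions around the mesenchymal genes, and 160.5 and 153.5 over 36 regions around the epithelial genes. OVOL1 gave 19 of these 36. By gene, the flank medians were 231 and 253 for OVOL1, 63 and 55 for GRHL2 and 81.5 and 79 for ESRP1. In R1 GRHL2 and ESRP1 lay within the mesenchymal range of 56 to 171.5. In R2 that range was 57 to 178, and GRHL2 lay just under it. The median folds in the flanks were 5.59 and 5.34 for the mesenchymal genes and 6.76 and 6.70 for the epithelial genes.

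The best-ranked region by fold was distal to the gene for most members. The flanks held 80 shared regions around the mesenchymal and 36 around the epithelial genes, against 10 and 2 at gene ends. The same share was not computed over all protein-coding genes, so a distal best region is not read as a trait of these factors. For ZEB2 the best-ranked region lay 32900 bp past the high-coordinate end (144553019 to 144553948), with folds of 14.6 and 12.5, the highest of all 187, and pileups of 229 and 208. This is inside the noncoding gene LINC01412. PRRX1 had its best-ranked region 39133 bp before the low-coordinate end (170623069 to 170623635), with folds of 12.5 and 11.8. For TWIST1 it was 97536 bp past the high-coordinate end (19215172 to 19216238), near the limit of the window, with folds of 13.5 and 11.3. SNAI1 had it 53657 bp before its low-coordinate end (49928339 to 49929323), with 12.0 and 11.7, over the limit of the noncoding gene LOC105372653. ZEB1 had it 55224 bp away with 11.1 and 10.7 and TWIST2 37251 bp away with 8.21 and 8.64. Among the epithelial factors, OVOL1 had it 20252 bp away with 11.02 and 12.1 and ESRP1 27559 bp away with 9.51 and 9.05, while that of GRHL2 lay inside the gene. Whether these regions act on the gene they were assigned to is not measured here. The 100000 bp limit fell between a region 99157 bp from PRRX1, which counts, and one 101347 bp from TWIST1, which does not.

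The microRNAs of the miR-200 family and miR-205 are known to repress ZEB1 and ZEB2, and ZEB factors repress their genes in turn. Their mature sequences from RefSeq (GRCh38.p14) are shown with bases 2 to 8, the seed that pairs with a target, in capitals, because they link the epithelial side to the ZEB genes.
hsa-miR-200b-3p: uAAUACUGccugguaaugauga
hsa-miR-200c-3p: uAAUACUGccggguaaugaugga
hsa-miR-429: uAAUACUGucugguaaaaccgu
hsa-miR-200a-3p: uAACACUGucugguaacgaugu
hsa-miR-141-3p: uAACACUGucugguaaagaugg
hsa-miR-205-5p: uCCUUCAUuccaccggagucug
The first 3 share the seed AAUACUG and the next 2 the seed AACACUG. Of the 6 genes 3 had an open end in both lists, against 27% of 1900 microRNA genes. MIR200A and MIR429 share a single weak region on chromosome 1 (1168714 to 1169597), which overlaps MIR429, with folds of 2.39 and 2.57 and pileups of 40 and 40. The region near MIR141, on chromosome 12 (6964832 to 6965664) with folds of 5.90 and 6.35, also lies at the end of PHB2, a gene for an inner mitochondrial membrane protein, and is 1066 bp from MIR200C. MIR205 had no region within 1000 bp, and the nearest shared one was 3098 bp away with folds of 11.3 and 11.4.

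Other genes of the programme were counted in the same way from lists chosen with earlier results of these data known. Partner factors on the mesenchymal side had an open end in both lists in 11 of 14 cases, those on the epithelial side in 10 of 14, and both shares lie near the 73.9% of all protein-coding genes. With folds of at least the list medians the counts were 6 of 14 on the mesenchymal side and 8 of 14 on the epithelial side, against 57.4% of all protein-coding genes. This order is the opposite of that among the 10 factor genes. On the mesenchymal side RUNX2, the osteoblast factor, had folds of 11.6 and 10.6, SIX2 9.10 and 9.01, and FOXC1 6.89 and 7.45. GSC and TBXT, factors of the early embryo, had none, and TCF4, a partner of TWIST proteins, had one in R1 alone with a fold of 2.91. On the epithelial side ESRP2, the paralogue of ESRP1, had folds of 9.27 and 9.03, FOXA1 8.42 and 9.05 in a region shared with TTC6, and GRHL1 6.45 and 8.86. FOXA2, KLF5 and OVOL2 were open at an end in neither list. Among the paralogues of the epithelial factors, GRHL1, GRHL3, ESRP2 and OVOL3 had regions at or above the median fold of both lists, while OVOL2 had none. The region at OVOL3 also lies at ends of POLR2I and TBCB.

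Of 16 mesenchymal effector genes 13 had an open end in both lists, and of 16 epithelial effector genes 10 did. The share of all protein-coding genes, 73.9%, lies between the 2. With folds of at least the list medians the counts were 11 of 16 and 2 of 16, against 57.4% of all protein-coding genes. LOX had folds of 7.77 and 6.84, ACTA2, the smooth muscle actin gene, 7.26 and 6.76, COL1A1, a collagen I chain gene, 6.80 and 6.41, and FAP 6.76 and 6.37. VIM, with 5.04 and 4.13, and CDH2, with 5.12 and 4.26, had an open end in both lists but lay under the R2 median of 5.11. CDH11, COL3A1 and THY1 had a region in neither list. Among the epithelial effectors OCLN, the occludin gene, had folds of 7.14 and 7.08 and DSP, the desmoplakin gene, 5.31 and 5.58, and these were the 2 counted as strong. EPCAM had 10.6 in R1 and 4.55 in R2, but these are peaks at opposite ends of the gene, and the R2 counterpart of the stronger one begins just past the 1000 bp limit. KRT8 had 4.52 and 4.34. CRB3, LAD1 and ST14 had none. At CDH1, which encodes E-cadherin, the R2 list alone had a peak, of fold 2.06. CLDN4 had one in R1 alone, of fold 2.05, which also lies at the end of METTL27. KRT19 had one in R2 alone, of fold 6.71, and the R1 peak there ends just past the limit. Shared regions per 100 kb of window had a median of 9.46 for the mesenchymal effectors and 10.8 for the epithelial effectors, against 6.65 over all protein-coding genes.

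All 10 cofactors of TWIST and ZEB proteins had an open end in both lists, among them HDAC2 with folds of 9.13 and 8.49, HDAC1 with 7.53 and 9.88, KDM1A with 7.24 and 7.18 and SIRT1 with 7.07 and 6.70, all of them chromatin enzymes of wide use. The share of all protein-coding genes is 73.9%. Folds of at least the list medians were found for 5 of 10, near the 57.4% of all protein-coding genes. The inhibitors ID1, ID2 and ID3 and the corepressors CTBP1 and CTBP2 were not among them. Of 12 genes of TGF-beta signalling, which induces Snail and ZEB genes, 10 had an open end in both lists, against 73.9% of all protein-coding genes. The median fold of both lists was reached by 4 of 12, against 57.4%. SMAD4 had folds of 9.42 and 8.62, TGFBR2 8.24 and 8.57 in a region shared with LOC105377015, and TGFBR1 6.63 and 6.43. These and TGFB2, with 5.56 and 5.14, were the 4. SMAD2 had 4.99 and 6.25 and so lay under the R1 median of 5.03. SMAD7, an inhibitor of the pathway, had one only in the R2 list, of fold 4.22, and TGFBR3 had none. The SMAD7 peak had a pileup of 480, above the R2 upper quartile of 394 among genes with an open end in both lists.

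**Figure D4:**
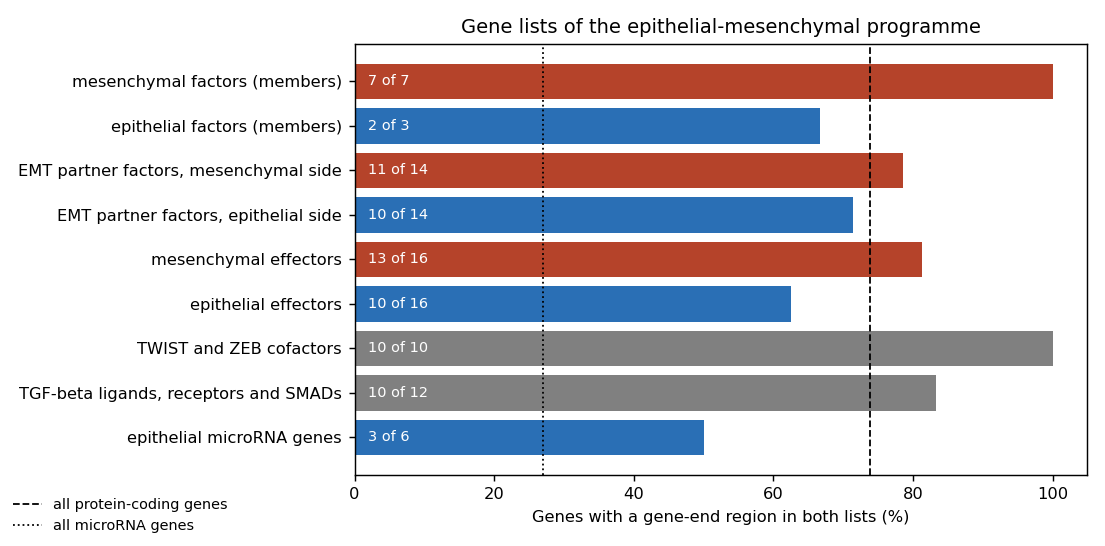
Share of genes with an open end in both lists (%, horizontal axis from 0) for the 10 factor genes and the lists of partners, effectors, cofactors, signalling and microRNA genes, with counts in the bars and the shares of all protein-coding genes (73.9%, dashed) and of all microRNA genes (27%, dotted). Mesenchymal lists in red stand at 7 of 7, 11 of 14 and 13 of 16, and epithelial lists in blue at 2 of 3, 10 of 14, 10 of 16 and 3 of 6.

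Markers of the labelled cell type were checked by the same measure, which reads open chromatin and not expression. Of 12 markers of retinal pigment epithelium 8 had an open end in both lists, near the 73.9% of all protein-coding genes. The median fold of both lists was reached by 3 of 12, against 57.4% of all protein-coding genes. MITF had folds of 7.79 and 8.04, and PMEL had 10.9 and 10.5 in a region shared with CDK2. OTX2 had folds of 3.16 and 3.83 and pileups of 29 and 35, as low as those of OVOL1. RPE65, LRAT, TYR and TYRP1 had none. Folds were 6.15 and 5.54 at SERPINF1, 4.01 and 4.81 at RLBP1 and 2.55 and 2.30 at BEST1. KRT8, with 4.52 and 4.34, and KRT18, with 3.62 and 3.81, also had an open end in both lists, under the median folds. The KRT18 region also lies at an end of KRT8. Of 5 mesenchymal or fibroblast markers 4 had an open end in both lists, and of 4 general epithelial markers 2 did, against the same 73.9%. The median fold of both lists was reached by 2 of 5 and by 1 of 4, against 57.4%. These lists are too short to be read against those shares. Of the markers of blood, endothelium and liver, PTPRC had a region in R1 alone, with a fold of 3.47, and PECAM1 and ALB had none.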

How the data were processed

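ATAC-seq peaks of wild-type hTERT-RPE1 cells were used as 2 merged lists, R1 and R2, each from 3 libraries. Per the submitters' processing notes the coordinates are on hg38. No aligner, peak caller or setting is given in the sources used here, nor any shift of reads for Tn5, which would move peak edges by a few bases. The deposited files hold, per peak, a fold enrichment (a ratio) and −log10 p-values and q-values as the authors deposited them, a score that follows the −log10 q-value, by the authors, and the summit offset. Depth per library is not given.

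Peaks were joined where they overlapped by at least 1 bp, and a region with peaks of both lists was called shared. The pileup was recovered as the whole number that gives both the fold, taken as (pileup + 1) / (background + 1), and the Poisson p-value. It matched within 0.001 for 99.998% of R1 and 99.996% of R2 peaks. No source used here states this relation. A gene-end region is a peak within 1000 bp of either limit of a gene. Gene intervals, 300 bp promoters and microRNAs came from RefSeq GRCh38.p14, which has 19970 protein-coding symbols on chromosomes 1 to 22 and X. The R1 and R2 labels name pooled lists, so no test was made. The 10 genes, the gene lists and the tests were chosen with earlier results of these data known. All 10 genes are named, and for each list the 4 members with the best mean fold percentile, the first 3 without a region and those with one in a single list. Some genes that this rule names are not reported here. Regions named are the best-ranked, the widest or the one at the start. Other regions named inside PRRX1, TWIST2 and GRHL2 or near them and the paralogues GRHL3 and OVOL3 were chosen after their values were seen. TGFB2, VIM and CDH2 were chosen in the same way. So were the markers of retinal pigment epithelium that are given with values. Intervals and joining were tested on simulated data. The work used scipy 1.17.1 and pandas 2.3.3 under Python 3.11.15, with plots by matplotlib 3.10.9 and arrays by numpy 2.4.6. The effect of other windows, thresholds and definitions of sharing is given at the end.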

Additional observations from a re-analysis of the deposited data

How the results depend on the processing

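The count of mesenchymal factors with an open gene end in both lists stayed between 6 and 7 under all 8 alternatives. The count of epithelial factors, 2, became 1 with 500 bp around gene ends, 1 at −log10 q of at least 5, 1 at 10, OVOL1 being lost each time, and 0 among peaks at or above the median fold. Among peaks at or above the median fold the counts were 6 for mesenchymal partner factors, 8 for epithelial partner factors, 11 for mesenchymal effectors, 4 for TGF-beta signalling, 2 for epithelial effectors, 5 for cofactors and 1 for the microRNA genes, and the microRNA count was also 1 with 500 bp, 5 with 2000 bp and 1 at −log10 q of at least 10. Alternatives for these lists were chosen after seeing the data.

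The difference of median densities, 0.82 shared regions per 100 kb, moved under every alternative, so its size is not settled. It was 7.46 for gene intervals alone, 2.44 with 20000 bp, 0.999 with 50000 bp and 0.969 with 200000 bp each side. Peaks with −log10 q from 5 upwards gave 0.95, from 10 upwards 1.35 and those at or above the median fold 0.42, and an overlap of at least 50% of the narrower peak gave 0.44. It was 1.57 with R1 alone, 1.57 with R2 alone, 2.20 with regions of either list, 1.72 without ends of other genes and 0.65 for means over genes. Leaving out 1 gene gave values from -1.35 to 1.58, and the sign turned without GRHL2 (-0.58) and without ESRP1 (-1.35). The share of peaks found in the other list lay between 87.1% and 92.6% for R1 and between 93.6% and 97.3% for R2 under 3 alternatives. No paired analysis was possible because each set of libraries is represented by 1 pooled list. Depth per library is unknown, so a missing peak shows only that none was called. The cause of these changes was not tested.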
